A study of Mus musculus with 6 samples.

Results

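The growth hormone (GH) and insulin-like growth factor (IGF) axis was followed through 10 genes, read from the gene table by their symbols, out of 54532 genes in all. They were *Ghr*, *Igf1*, *Igf1r*, *Igf2r* and the binding protein genes *Igfbp2* to *Igfbp7*. RNA was measured by RNA sequencing in 2 sorted populations of cartilage cells taken 24 h after tamoxifen (TAM). The mice were 1 month of age, on a C57BL/6 background, and carried the Gli1-CreERT2 and tdTomato alleles. Both populations came from the same mice, so the Gli1- cells carried the same alleles and had seen the same TAM as the Gli1+ cells. Gli1+ cells were CD45- CD31- Ter119- tdTomato+ and Gli1- cells were CD45- CD31- Ter119- tdTomato-, with 3 libraries of each, numbered 1 to 3. The red label is switched on by a Cre driven from the *Gli1* locus, so Gli1- cells are every other cell that passed the gate, including any that expressed *Gli1* without recombining. The GEO labels name the tissue as growth plate and the paper names costal cartilage, and whether a library pooled several mice is not given in the sources used here. The question asked of the data is whether cells marked by *Gli1* differ in this axis from their neighbours.

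GH acts on cartilage through its receptor GHR, which signals by JAK2 and STAT5 and induces *Igf1*, and IGF1 in turn drives chondrocyte growth through IGF1R. IGF2R takes up IGF2 for breakdown in lysosomes. The IGFBPs are secreted proteins that hold IGFs outside the cell, prolong their life and limit or present them to the receptor, and proteases such as pregnancy-associated plasma protein-A cut them to release the ligand.

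Libraries held between 17114101 and 18602482 counts. *Gli1* (10:127329882-127341974, minus strand of mm10) was at 4.55, 6.39 and 7.98 CPM (counts scaled to library size, without regard to gene length) in Gli1+ replicates 1 to 3 and at 0.724, 1.26 and 2.43 CPM in Gli1- replicates 1 to 3, so the populations did not overlap and followed their labels. The chondrocyte markers *Col2a1* and *Acan* were present in every library, *Col2a1* at 2130 CPM or more and *Acan* at 591 CPM or more. Gli1+ replicate 1 stood apart with 15000 genes detected, against 20666 to 23360 in the other 5 libraries. Gli1- replicate 1 held leukocyte transcripts, with a summed level of 10 leukocyte markers of 18426 TPM (counts per length, scaled to 1 total in every library) against 51.9 to 249 TPM elsewhere. The replicate 2 libraries of both populations also stood apart from the others, and this touched most of the axis. Results that turned with 1 of these libraries are given with and without it.

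None of the 9 genes of the axis that passed the filter on low counts was called between the populations, and over all 14801 genes tested the share called was 0.0%. This call needed an adjusted p-value under 0.05 and a log2 fold change (log2FC) over 1 in size in edgeR's quasi-likelihood test. The label gene *Gli1* was not called by it either (log2FC 2.09, unadjusted p = 0.0152, adjusted p = 0.9999, edgeR). The lack of calls is therefore no measure of how alike the populations are. At an unadjusted p under 0.05 edgeR again held 0 of the 9, against 514 genes in all (3.47%, with 2.04% lower), and DESeq2 without a replicate block called 30 genes, none from the axis. The libraries of the 2 populations overlapped for all 10 genes, while they did not overlap for 8.49% of all genes tested (4.45% lower and 4.04% higher). Of the 9, *Igfbp3* and *Igfbp6* were lower in Gli1+ cells in 3 of 3 pairs of same-numbered libraries and none was higher in 3 of 3, against 19.8% and 17.6% of all genes tested (37.4% in either direction). The untested *Igfbp2* was lower in 3 of 3 as well. The median log2FC of the 9 genes was -0.43, with 3 values above 0 and 6 below.

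**Figure D1:**
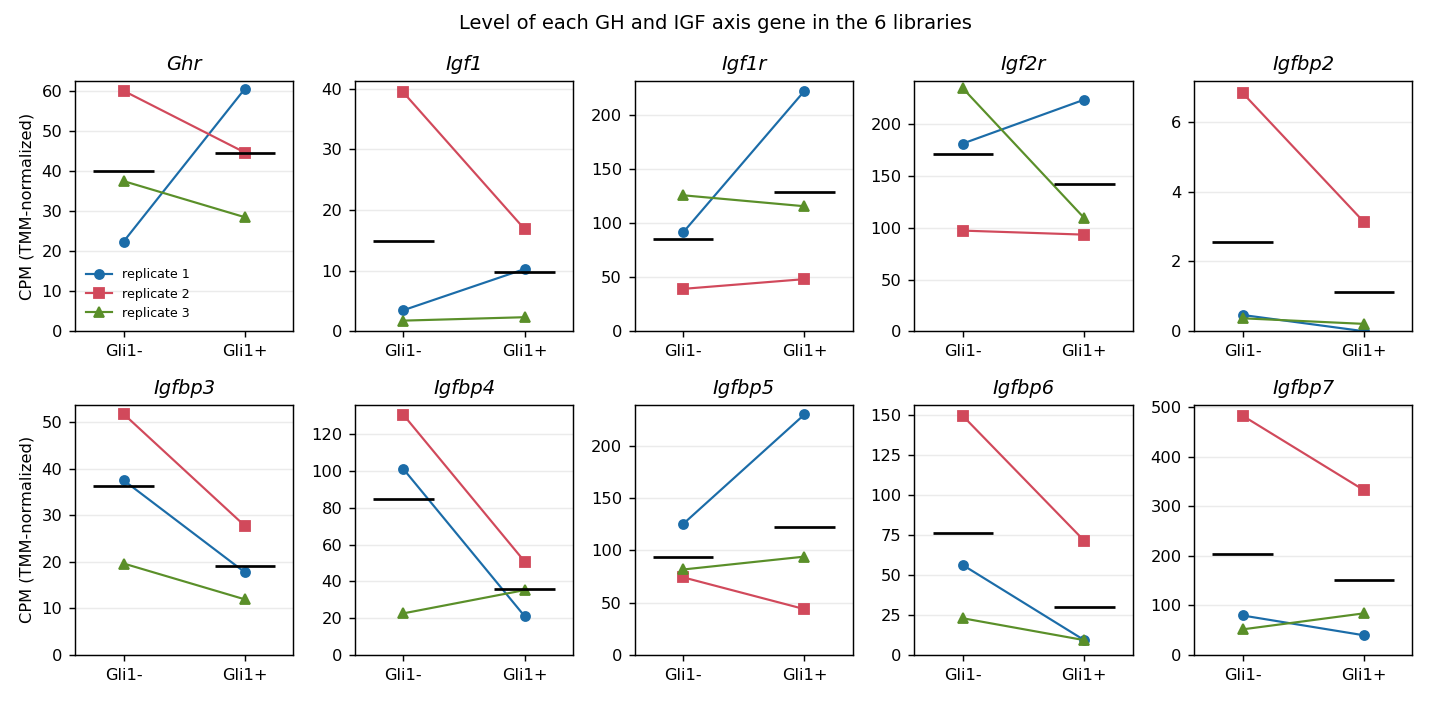
CPM after TMM scaling (y axis, linear, a separate scale for each gene) of the 10 genes in Gli1- and Gli1+ cells (x axis). Points are libraries, lines join libraries with the same replicate number and black bars are means of 3. The lines of Igfbp2, Igfbp3 and Igfbp6 all slope down towards Gli1+ cells. Both replicate 2 points lie above the other 4 for Igf1, Igfbp2, Igfbp6 and Igfbp7 and below them for Igf1r, Igf2r and Igfbp5. Within each population replicate 2 is also the highest for Igfbp3 and Igfbp4.

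*Ghr*, the receptor for growth hormone (ENSMUSG00000055737, 15:3317760-3583492, minus strand), was found in every library. It was at 60.7, 44.7 and 28.5 CPM in Gli1+ replicates 1 to 3 and at 22.4, 60.1 and 37.6 CPM in Gli1- replicates 1 to 3. The highest and the lowest library both belonged to pair 1, and the other 2 pairs went the opposite way. The log2FC was 0.16 (standard error 0.49, adjusted p = 0.9999), and without Gli1+ replicate 1 it was -0.15. *Ghr* had the smallest share of its spread in the replicate number among the 10 genes, 28.3% of the sum of squares of log2 CPM.

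*Igf1*, the ligand that GH induces (ENSMUSG00000020053, 10:87858265-87937042, plus strand), was low in these sorted cells. It was at 10.3, 16.8 and 2.31 CPM in Gli1+ cells and at 3.47, 39.4 and 1.75 CPM in Gli1- cells, which is 33 to 594 counts a library. The highest library of each population was its replicate 2 and the lowest its replicate 3. The highest Gli1- library was 22.6 times the lowest, a wider range than for any other of the 9 tested genes. The log2FC was -0.60 (standard error 1.16, adjusted p = 0.9999), and it was 1.87 without Gli1- replicate 2 and 0.24 in edgeR with the replicate block. No direction can be given for *Igf1*.

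*Igf1r*, the signalling receptor for IGF1 (ENSMUSG00000005533, 7:67952827-68233668, plus strand), was at 223, 48.3 and 116 CPM in Gli1+ cells. In Gli1- cells it was at 91.6, 39.3 and 126 CPM. Only pair 1 showed a wide difference (log2 difference 1.28), and the log2FC of 0.59 (standard error 0.64, adjusted p = 0.9999) was -0.08 without Gli1+ replicate 1.

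*Igf2r*, the scavenger receptor for IGF2 (ENSMUSG00000023830, 17:12682406-12769664, minus strand), was at 224, 93.4 and 109 CPM in Gli1+ cells and at 182, 97.3 and 235 CPM in Gli1- cells. Pair 2 was level, and pairs 1 and 3 went opposite ways (log2 differences 0.30 and -1.10). The log2FC was -0.27 (standard error 0.52, adjusted p = 0.9999), and 0.02 without Gli1- replicate 3. Without replicate 1 and with the block it was -0.59 in both tools, at an adjusted p of 0.0375 in edgeR and 0.198 in DESeq2, and under the fold threshold in both. The antisense RNA *Airn* overlaps *Igf2r* and held 103 to 381 counts, at most 18.4% of the *Igf2r* count in a library. The use of strand in counting is not given in the sources used here, so reads of the 2 genes cannot be told apart with certainty.

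Among the binding protein genes, 2 of the 5 tested kept 1 direction through the pairs (40.0%, close to the 37.4% of all genes tested). *Igfbp6*, whose product prefers IGF2 over IGF1 (ENSMUSG00000023046, 15:102144362-102149511, plus strand), was at 9.26, 71.4 and 9.24 CPM in Gli1+ replicates 1 to 3. In Gli1- replicates 1 to 3 it was at 56.2, 149 and 22.9 CPM. Each Gli1+ library lay below its partner, by log2 differences of -2.59, -1.06 and -1.30, yet Gli1+ replicate 2 was above 2 of the 3 Gli1- libraries. The means were 30.0 ± 35.9 CPM (SD, n = 3) and 76.2 ± 65.6 CPM (SD, n = 3). Without pairing, the log2FC was -1.35 (standard error 0.97, adjusted p = 0.9999, edgeR) and the exact permutation p of the log2 levels was 0.3, where 0.1 is the smallest that 3 against 3 allows. This log2FC rested on the replicate 2 libraries, moving to -3.06 when Gli1+ replicate 2 was left out and to -0.43 when Gli1- replicate 2 was.

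With the replicate number as a block, *Igfbp6* was the 1 gene of the 9 that DESeq2's Wald test called, at a log2FC of -1.66 (standard error 0.43, adjusted p = 0.00714). DESeq2 with the block called 2.89% of all genes, 2.11% as lower. In edgeR with the block the log2FC was -1.65 at an unadjusted p of 0.00691 and an adjusted p of 0.388, so the call was not made there. Without replicate 1, the pair with the leukocyte transcripts and the low number of genes, *Igfbp6* was called by both tools, at a log2FC of -1.19 in DESeq2 (adjusted p = 9.06e-05) and -1.18 in edgeR (adjusted p = 1.38e-06). These fits rest on replicates 2 and 3 alone. In them edgeR's common coefficient of variation between libraries was 0.18, against 0.47 with the block on all libraries. Both tools called more genes in all without replicate 1, 5.09% and 7.83%. Without replicate 2 the DESeq2 value was -1.97 (adjusted p = 0.10) and without replicate 3 it was -1.81 (adjusted p = 0.158), and neither was called. The direction of *Igfbp6* was thus the same in all 26 fits, and the call was made in 5 of them, all with the replicate block.

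*Igfbp3*, the main carrier of IGFs in blood (ENSMUSG00000020427, 11:7206086-7213923, minus strand), showed the most even difference. It was at 17.7, 27.7 and 11.9 CPM in Gli1+ cells and at 37.5, 51.7 and 19.6 CPM in Gli1- cells. The log2 differences of the pairs were -1.08, -0.90 and -0.71, while the populations overlapped because replicate 2 was high and replicate 3 low in both. The log2FC was -0.92 (standard error 0.52, adjusted p = 0.9999, edgeR), and with the block -0.90 (standard error 0.27, unadjusted p = 0.0175, adjusted p = 0.473). DESeq2 with the block gave -0.91 (adjusted p = 0.153), and -0.92 (adjusted p = 0.786) without replicate 2. Without replicate 1 it was -0.82 in both tools with the block (adjusted p = 0.0414 in DESeq2 and 0.00439 in edgeR), still under the fold threshold, so it was called in none of the 26 fits. *Igfbp3* and *Igfbp6* were the 2 of 9 genes with an unadjusted p under 0.05 in edgeR with the block, both lower, against 8.61% of all genes (5.25% lower). Population held 40.9% of the sum of squares of *Igfbp3* and the replicate number 57.9%, and these were 30.3% and 64.7% for *Igfbp6*.

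*Igfbp4*, whose product blocks IGF action until it is cut by pregnancy-associated plasma protein-A (ENSMUSG00000017493, 11:99041244-99054392, plus strand), was at 21.0, 50.7 and 35.2 CPM in Gli1+ cells. In Gli1- cells it was at 101, 131 and 22.6 CPM. Pairs 1 and 2 were lower in Gli1+ cells (log2 differences -2.26 and -1.36) and pair 3 was higher (0.64). The log2FC was -1.25 (standard error 0.66, adjusted p = 0.9999), and DESeq2 with the block gave -1.04 (adjusted p = 0.431). It ran from -1.80 to -0.38 when libraries were left out.

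The 250 bases before the start sites of *Igfbp6*, *Igfbp3* and *Igfbp4* are shown because these had the largest log2FC in size among the 9 tested genes, from RefSeq on GRCm38.p6. Capitals mark matches to the TATA box letters TATAAA on either strand.
Igfbp6 (chr15:102143936-102144185, plus strand): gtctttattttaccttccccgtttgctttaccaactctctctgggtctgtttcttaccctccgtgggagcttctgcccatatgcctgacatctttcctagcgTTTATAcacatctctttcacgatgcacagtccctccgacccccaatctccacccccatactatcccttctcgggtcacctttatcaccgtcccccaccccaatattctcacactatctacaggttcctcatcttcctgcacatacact
Igfbp3 (chr11:7213924-7214173, minus strand): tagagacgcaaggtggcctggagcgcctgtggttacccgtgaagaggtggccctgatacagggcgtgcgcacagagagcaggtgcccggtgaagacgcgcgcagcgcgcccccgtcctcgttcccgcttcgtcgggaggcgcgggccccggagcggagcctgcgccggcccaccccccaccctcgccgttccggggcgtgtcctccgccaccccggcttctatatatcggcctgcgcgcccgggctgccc
Igfbp4 (chr11:99040994-99041243, plus strand): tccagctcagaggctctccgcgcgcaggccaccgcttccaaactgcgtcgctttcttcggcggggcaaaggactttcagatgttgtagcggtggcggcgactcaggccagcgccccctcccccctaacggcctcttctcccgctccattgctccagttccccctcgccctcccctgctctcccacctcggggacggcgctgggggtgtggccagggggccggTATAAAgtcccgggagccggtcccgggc
*Igfbp4* held the TATA box letters at bases -28 to -23 from its start, on the gene's strand. *Igfbp6* held them at -148 to -143 on the opposite strand, and *Igfbp3* did not hold them in this window. The *Igfbp3* and *Igfbp4* stretches were rich in G and C (73.2% and 69.2%) and that of *Igfbp6* was not (49.6%), with a median of 52.4% over all 32851 RefSeq promoters. All 10 genes matched RefSeq, with 12 promoters. TATAAA was in 3 of the 12 (12.4% of all promoters) and the GC box letters GGGCGG in 5 of the 12 (32.7% of all), those of *Ghr*, *Igf1r*, *Igf2r*, *Igfbp2* and *Igfbp7*. The letters of a GLI site (TGGGTGGTC), a STAT5 site (TTCNNNGAA) and a FOXO site (GTAAACA), searched on both strands, were in 0 of the 12 windows, against 0.225%, 7.02% and 3.17% of all promoters.

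*Igfbp5*, a binding protein gene of bone and cartilage matrix (ENSMUSG00000026185, 1:72857932-72874884, minus strand), was at 230, 43.8 and 94.1 CPM in Gli1+ cells and at 125, 74.3 and 81.8 CPM in Gli1- cells. The 3 Gli1- libraries lay between the high Gli1+ replicate 1 and the low Gli1+ replicate 2. The log2FC was 0.39 (standard error 0.61, adjusted p = 0.9999), and -0.47 without Gli1+ replicate 1.

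*Igfbp7*, a relative of the family that binds IGFs weakly (ENSMUSG00000036256, 5:77349240-77408041, minus strand), was at 39.6, 332 and 83.8 CPM in Gli1+ cells. In Gli1- cells it was at 79.5, 482 and 51.5 CPM. The replicate 2 libraries were the highest in both populations, and the replicate number held 91.7% of the sum of squares against 1.09% for population. The log2FC was -0.43 (standard error 1.01, adjusted p = 0.9999), and 1.19 without Gli1- replicate 2. *Polr2b* overlaps *Igfbp7* on the opposite strand and held 628 to 3288 counts, up to 440% of the *Igfbp7* count in a library, and how reads in the overlap were assigned was not tested.

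*Igfbp2* (ENSMUSG00000039323, 1:72824503-72852474, plus strand) did not pass the filter on low counts. It held 0, 51 and 4 counts in Gli1+ replicates 1 to 3 and 9, 103 and 7 counts in Gli1- replicates 1 to 3. Most of its reads were in the replicate 2 libraries. Without a filter, edgeR gave a log2FC of -1.19 (standard error 1.12, adjusted p = 0.925). The log2 differences of its pairs were -2.37, -1.10 and -0.58. *Igfbp2* lies tail to tail with *Igfbp5*, 5457 bases away, and while *Igfbp2* was highest in the replicate 2 libraries, *Igfbp5* was lowest in them.

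**Figure D2:**
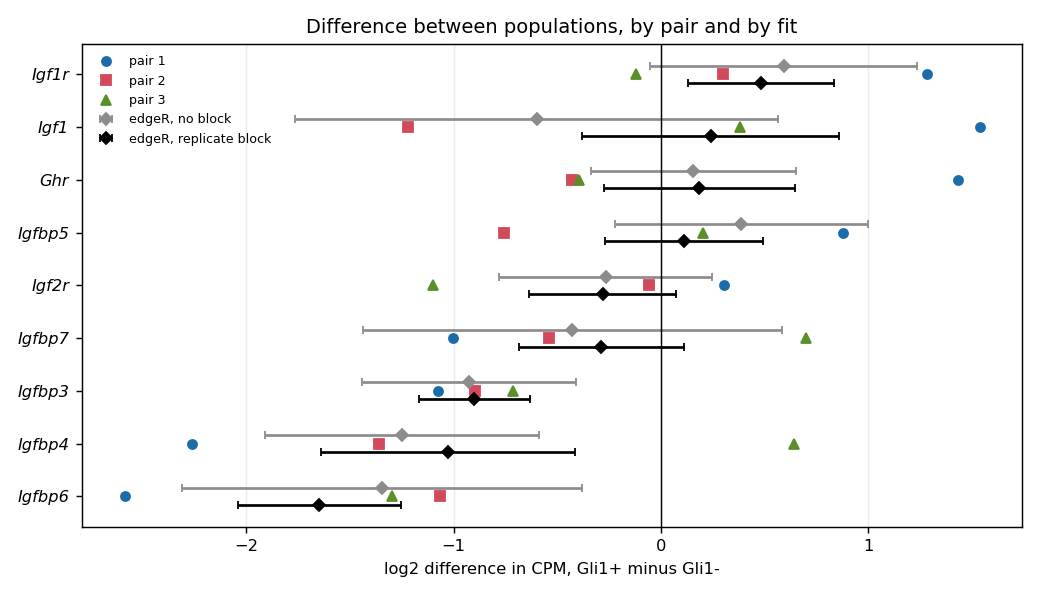
Log2 difference in CPM between Gli1+ and Gli1- cells (x axis) for the 9 tested genes (y axis). Coloured symbols are the 3 pairs, and diamonds with bars are the log2FC with its standard error from edgeR without and with the replicate block. The 3 pairs of Igfbp3 and of Igfbp6 all lie below 0, and those of the other 7 genes lie on both sides.

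Per length, *Igfbp7* was the most abundant transcript of the axis in both populations, at 326 ± 231 TPM (SD, n = 3) in Gli1+ cells and 405 ± 356 TPM (SD, n = 3) in Gli1- cells. In Gli1+ cells *Igfbp5* followed at 81.0 TPM and *Igfbp6* at 68.0 TPM, and in Gli1- cells *Igfbp6* was next at 179 ± 98.1 TPM (SD, n = 3). *Igf2r* (57.0 and 62.8 TPM), *Igf1r* (30.0 and 17.7), *Igfbp4* (24.7 and 54.4) and *Igfbp3* (19.3 and 33.8) lay between these and *Ghr* (17.3 and 12.8 TPM). *Igf1* (3.04 and 3.35 TPM) and *Igfbp2* (1.34 and 3.07 TPM) were the lowest. Only the step from *Ghr* down to *Igf1* had all libraries of the higher gene above all of the lower one, and the libraries of all other neighbours in the order overlapped. *Igf1*, the 1 ligand among the 10, was thus below all 3 receptors in mean level per length in both populations.

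The make-up of the binding protein transcripts was read as shares of the summed TPM of *Igfbp2* to *Igfbp7*. Shares need no scaling factor between libraries, but they keep any trend with gene length within a library, such as the one given below. The lengths of *Igfbp6* (1112 bases) and *Igfbp5* (6006 bases) differ, and the part of that trend in the shares was not tested. *Igfbp6* made up 9.27%, 17.4% and 7.90% of the sum in Gli1+ replicates 1 to 3 and 29.3%, 22.6% and 23.3% in Gli1- replicates 1 to 3. On this scale every Gli1+ library was below every Gli1- library. The means were 11.5% ± 5.16 (SD, n = 3) and 25.1% ± 3.71 (SD, n = 3), a difference of -13.5 percentage points, and the exact 2-sided permutation p was 0.1, the smallest that 3 against 3 can give. When libraries were left out 1 at a time the difference ran from -16.5 to -11.4 points. As shares of counts in place of TPM, which give long transcripts more weight, *Igfbp6* was at 2.91%, 13.5% and 3.94% in Gli1+ cells and at 14.0%, 16.7% and 11.5% in Gli1- cells. The populations then overlapped through Gli1+ replicate 2, with a difference of -7.30 points and an exact permutation p of 0.2, so the separation held for shares of TPM only.

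The other shares of TPM overlapped between the populations. *Igfbp7* held 36.4%, 74.6% and 65.9% in Gli1+ cells and 38.2%, 67.0% and 48.2% in Gli1- cells. *Igfbp5* held 42.7%, 1.98% and 14.9% against 12.1%, 2.08% and 15.4%, so that Gli1+ replicate 1 alone had *Igfbp5* as its leading binding protein transcript. *Igfbp4* held 3.12% to 7.58% against 4.96% to 13.3%, *Igfbp3* 2.40% to 6.31% against 2.78% to 7.09% and *Igfbp2* at most 0.621% in any library. Their exact permutation p-values lay between 0.5 and 0.8. As shares of counts, *Igfbp3* did not overlap, at 5.08% to 5.58% in Gli1+ and 5.78% to 9.87% in Gli1- cells (exact permutation p = 0.1). The summed level itself was 403, 788 and 371 TPM in Gli1+ cells and 630, 1214 and 335 TPM in Gli1- cells, which overlapped too (exact permutation p = 0.7).

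**Figure D3:**
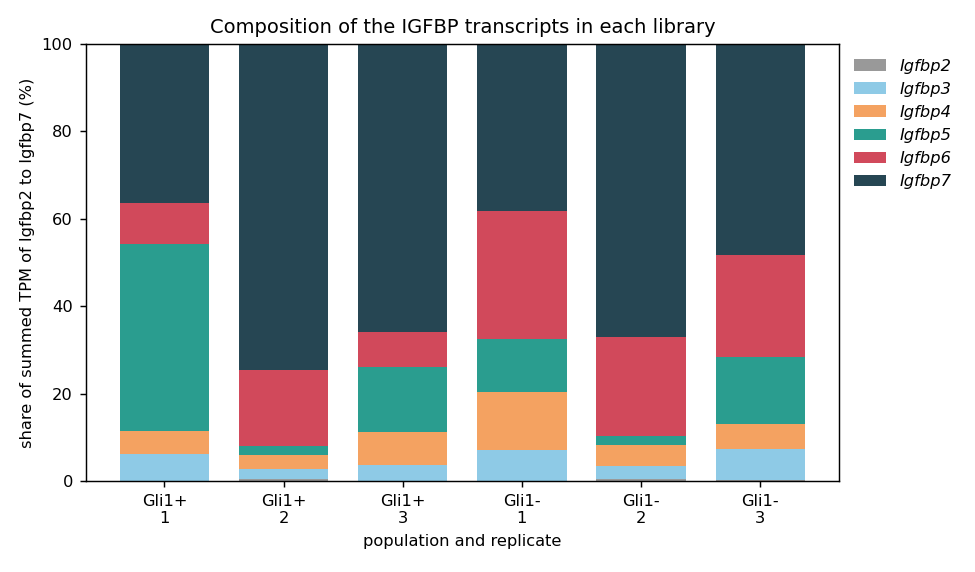
Stacked bars of the share of each binding protein gene in the summed TPM of Igfbp2 to Igfbp7 (y axis, percent) in each of the 6 libraries (x axis). The Igfbp6 segment is 7.90% to 17.4% in the Gli1+ libraries and 22.6% to 29.3% in the Gli1- libraries, and the Igfbp5 segment is widest in Gli1+ replicate 1.

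Much of the spread of the axis went with the replicate number. Its share of the sum of squares of log2 CPM had a median of 65.2% over the 9 tested genes, and population had 6.51%, against 61.3% and 10.8% over all genes tested. Replicate number has 2 degrees of freedom and population 1. Per degree of freedom it was above population for 7 of the 9, all but *Igfbp3* and *Igfbp4*, and for 70.4% of all genes tested. Both replicate 2 libraries were above the other 4 for *Igf1*, *Igfbp6* and *Igfbp7* and below them for *Igf1r*, *Igf2r* and *Igfbp5*. Those 3 and 3 of 9 stand beside 25.1% and 22.8% of all genes. On the log2 scale replicate 2 was higher than the rest by 2.85 for *Igf1*, 2.72 for *Igfbp7* and 2.49 for *Igfbp6*, and lower for *Igf1r* (-1.59), *Igfbp5* (-1.10) and *Igf2r* (-0.91).

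Gene length moved with this difference. With all tested genes split by length into 5 bins, the median difference was 0.99 in the shortest bin (57 to 2015 bases) and -0.60 in the longest (7179 to 123179 bases). *Igfbp6* (1112 bases) and *Igfbp7* (1209 bases) were among the shortest genes of the axis, and *Igf1r* (16791 bases) was the longest. *Igf1* (9904 bases) was long and went against this order. Gli1+ replicate 1 had the opposite trend, with median deviations from the mean of all libraries of -0.96 in the shortest bin and 0.59 in the longest. With the trend in length removed from each library, *Igfbp6* had a log2FC of -1.46 in DESeq2 with the block (adjusted p = 0.000129). In edgeR with the block it was -1.46 (adjusted p = 0.167). Without this correction the 2 values were -1.66 and -1.65. The correction was chosen after seeing the data, and the part of gene length in the difference was not tested.

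**Figure D4:**
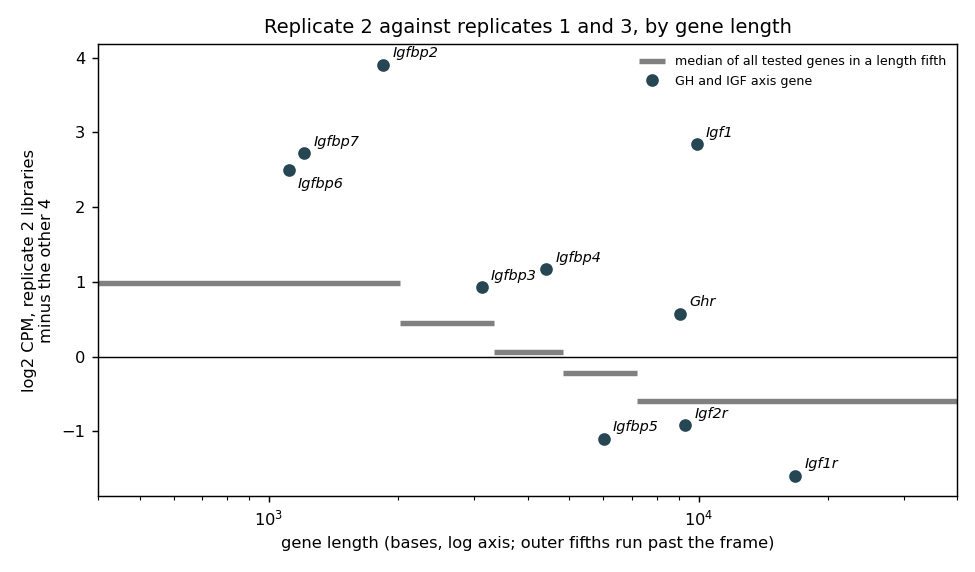
Mean log2 CPM of the 2 replicate 2 libraries minus that of the other 4 (y axis) against gene length (x axis, log scale). Points are the 10 genes and grey bars the medians of all tested genes in 5 bins of length. Igfbp6, Igfbp7, Igfbp2 and Igf1 lie above 2 and Igf1r lies lowest, at -1.59.

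Around these 10 genes, 62 further genes of the GH and IGF pathway were read by role, and 54 of them were tested. None was called in edgeR. At an unadjusted p under 0.05 there were 3 of 54 (5.56%, against 3.47% of all genes), all lower in Gli1+ cells, and the median log2FC was -0.13, with 22 values above 0 and 32 below. The libraries did not overlap for 9 of 54, 8 lower and 1 higher in Gli1+ cells (16.7%, against 8.49%). DESeq2 with the block called 3 of the 54, all lower (5.56%, against 2.89%).

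Other ligands were scarce. *Igf2* was at 0, 1.41 and 0.263 CPM in Gli1+ cells and 0.621, 1.13 and 0.212 CPM in Gli1- cells, and 2 of the other 3 ligand genes were at 0 counts in every library. *Igfbp1*, which lies 3539 bases from *Igfbp3*, had 0 counts in all 6 libraries, where a count of 0 allows up to 0.161 to 0.175 CPM before TMM scaling by counting error alone. *Igfals*, which encodes the partner of IGFBP3 in its blood complex, was at 0 to 1.79 CPM. *Insr*, the insulin receptor, was at 56.0, 16.3 and 35.2 CPM against 43.0, 22.9 and 54.0 CPM (log2FC -0.16). Its libraries overlapped between the populations, as did those of the receptors of the IGFs.

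Transcripts of proteases that cut IGFBPs and of an inhibitor of those proteases were present. *Pappa*, which encodes pregnancy-associated plasma protein-A, was at 113, 51.6 and 47.7 CPM in Gli1+ cells and 38.9, 65.0 and 64.1 CPM in Gli1- cells. *Pappa2*, its relative that cuts the products of *Igfbp3* and *Igfbp5*, was at 18.1, 15.6 and 10.3 CPM against 6.72, 12.8 and 5.77 CPM. All 3 pairs had the higher level on the Gli1+ side, with overlap (log2FC 0.80, standard error 0.52, unadjusted p = 0.159 in edgeR). *Stc2*, which encodes an inhibitor, was at 39.0, 21.8 and 54.1 CPM against 49.2, 18.0 and 31.4 CPM. In this role 0 of 6 genes passed an unadjusted p under 0.05, and in 3 of 3 pairs 3 were higher and 1 was lower (17.6% and 19.8% of all genes tested).

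Of the 9 genes of GH receptor signalling, 1 had an unadjusted p under 0.05. *Stat5b*, the transcription factor that GHR activates, was at 23.3, 35.2 and 17.2 CPM in Gli1+ cells and 53.6, 64.2 and 43.0 CPM in Gli1- cells. The populations did not overlap, and the log2FC was -1.08 (standard error 0.42, unadjusted p = 0.0331, edgeR). DESeq2 with the block called it lower, at -1.14 (adjusted p = 0.0319). Among the feedback inhibitors that STAT5 induces, *Socs2* was at 27.0, 50.2 and 22.5 CPM against 12, 40.1 and 17.1 CPM, higher in 3 of 3 pairs (log2FC 0.53, unadjusted p = 0.379). *Cish* was at 0, 2.33 and 0.840 CPM against 19.2, 1.92 and 2.33 CPM, so its log2FC of -2.89 (unadjusted p = 0.0848) rested on Gli1- replicate 1, the library with leukocyte transcripts, and it was -1.005 without it. DESeq2 with the block called *Cish* lower without replicate 2, at -5.08 (adjusted p = 0.0238).

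Downstream of IGF1R, the adaptor gene *Irs2* was at 29, 84.2 and 70.2 CPM in Gli1+ cells and at 98.1, 91.9 and 120 CPM in Gli1- cells, with no overlap (log2FC -0.76, unadjusted p = 0.145). *Irs1* overlapped, at 32.9, 45.0 and 26.8 CPM against 19.8, 60.3 and 51.9 CPM. *Grb10*, an inhibitor of the receptor, was at 355, 137 and 220 CPM against 197, 97.8 and 188 CPM, higher in 3 of 3 pairs with overlap (log2FC 0.56, unadjusted p = 0.296). None of these 3 passed the test.

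*Pik3r2*, a regulatory subunit of PI3 kinase, was at 4.66, 10.7 and 6.62 CPM in Gli1+ cells and 18.8, 24.6 and 18.5 CPM in Gli1- cells (log2FC -1.49, standard error 0.49, unadjusted p = 0.0152, edgeR). *Igf2bp2*, which binds IGF2 messenger RNA, was at 63.4, 30.6 and 19.2 CPM against 95.7, 72.5 and 92.5 CPM (log2FC -1.20, standard error 0.50, unadjusted p = 0.0431, edgeR). These 2 and *Stat5b* were the 3 genes called lower by DESeq2 with the block, *Pik3r2* at an adjusted p of 0.0127 and *Igf2bp2* at 0.0464. All 3 were called again without replicate 1 and none without replicate 2 (adjusted p of 0.306 to 0.423) or without replicate 3 (0.475 to 0.703). Further genes without overlap were *Grb2*, *Akt2* and *Igf2bp3*, lower with log2FC values of -0.67, -0.67 and -1.50, and *Gsk3b*, higher at 0.63. Their unadjusted p-values lay between 0.0652 and 0.167.

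**Figure D5:**
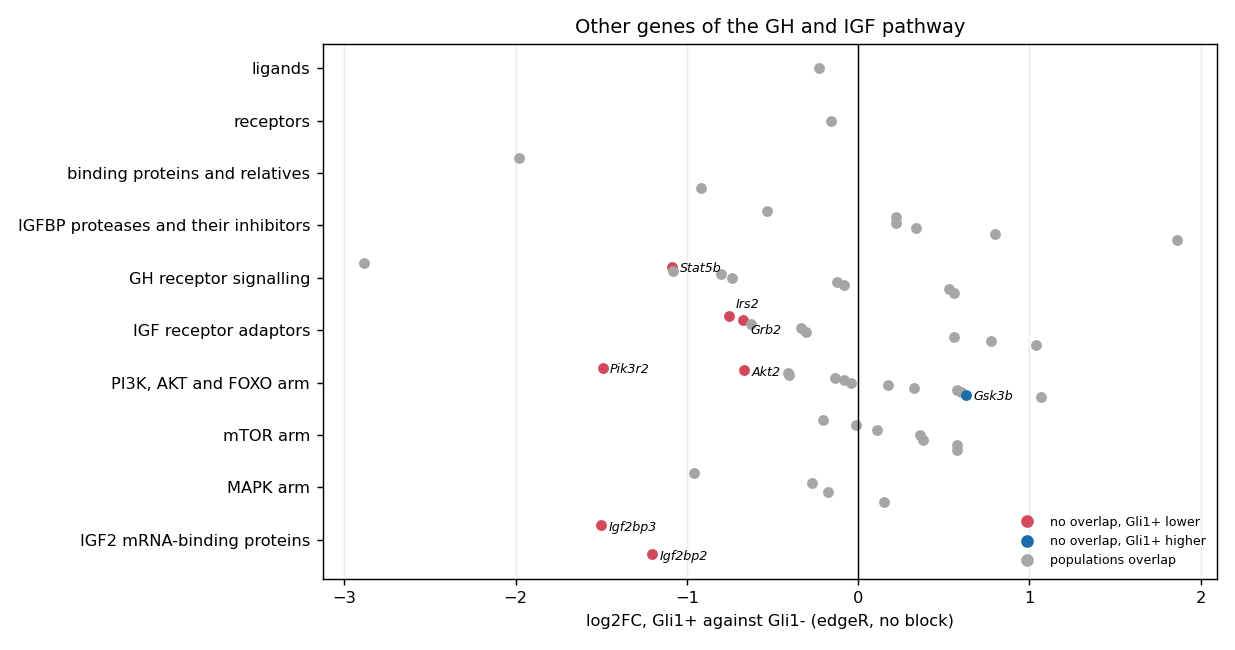
Log2FC between Gli1+ and Gli1- cells from edgeR without a block (x axis) of 53 tested genes of the wider pathway, 1 point each, by role (y axis). Red and blue points are the 7 lower and the 1 higher gene whose libraries did not overlap between populations, and grey points are genes whose libraries overlapped.

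Markers of other cells moved with the population, and their part in the values of *Igfbp6*, *Igfbp3* and the wider pathway was not tested. The summed level of 5 superficial zone markers was 1300 to 2008 TPM in Gli1+ libraries and 5245 to 6868 TPM in Gli1- libraries. Of these, 4 of the 5 (*Prg4*, *Cilp*, *Erg* and *Clu*) were lower without overlap (4.45% of all genes tested). Of 13 fibroblast and perichondrium markers, 2 had an unadjusted p under 0.05, both lower (3.47% of all genes in either direction), 6 were lower in 3 of 3 pairs and 1, *Col6a3*, was higher in 3 of 3 (19.8% and 17.6% of all genes). DESeq2 with the block called 4 of the 13 lower (2.11% of all genes) and 1, *Col6a3*, higher, at a log2FC of 1.34 (adjusted p = 0.00726). Their summed levels overlapped, at 1846 to 4911 TPM and 1925 to 3519 TPM. *Pdgfra* was at 85.4, 82.0 and 43.1 CPM in Gli1+ cells and 206, 355 and 264 CPM in Gli1- cells. As these are sorted bulk populations, fewer cells of a type and less RNA of a gene in each cell cannot be told apart. The 12 chondrocyte markers summed to 7177 to 12283 TPM in Gli1+ and 10088 to 21037 TPM in Gli1- libraries. DESeq2 with the block called 3 of the 12 lower (2.11% of all genes) and 0 higher. In 3 of 3 pairs, 4 of the 12 were lower and 1, *Acan*, was higher (19.8% and 17.6% of all genes). The 6 hypertrophic chondrocyte markers summed to 9198 to 12438 TPM in Gli1+ and 4403 to 10484 TPM in Gli1- libraries. Of these 6, *Mmp13* was higher in Gli1+ cells without overlap, at 5328, 2861 and 4859 CPM against 457, 592 and 607 CPM. *Col10a1* was lower in 3 of 3 pairs, at 34.6, 285 and 71.9 CPM against 161, 1781 and 210 CPM. Endothelial, mural, erythroid and skeletal muscle markers summed to at most 10.6, 130, 69.5 and 49.1 TPM in any library, and *Hba-a1* of red cells and *Acta1* of muscle were at 0 in Gli1+ replicate 1. The leukocyte markers were high in Gli1- replicate 1 alone. Without replicate 1 of both populations, DESeq2 with the block gave log2FC values of -1.19 for *Igfbp6* and -0.82 for *Igfbp3*. The part of the leukocyte transcripts in these values was not tested.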

How the data were processed

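RNA of 3 Gli1+ and 3 Gli1- libraries was poly-A selected and sequenced. The authors deposited 1 table of raw counts, the whole number of reads on each gene in each library, with gene lengths, coordinates and no values normalized or pooled. The submitters' processing notes name HISAT2 2.0.5, featureCounts 1.5.0-p3 and mm10, and the use of strand is not given in the sources used here. No column of another sample was present (0 unused).

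Counts were filtered with filterByExpr (minimum count 10), which left 14801 of 54532 genes, scaled by TMM (factors 0.812 to 1.13) and compared by the quasi-likelihood test of edgeR 4.0.16 in R 4.3.3 (prior count 2 for log2 CPM), with adjusted p-values by Benjamini-Hochberg over all genes tested. DEGs needed a |log2FC| over 1 and an adjusted p under 0.05, as in the paper's Methods. At these thresholds the paper reports genes that differ between the populations, from a test that its text does not name. TPM was computed from the counts and the gene lengths in the table. Single values were compared by exact 2-sided permutation tests. P-values measure only the spread between these libraries.

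The 10 members, the 62 genes of the wider pathway and the marker lists were chosen with earlier results of these data known. Of the wider pathway, 13 genes fixed by name and at most 12 others, with the smallest p among those without overlap, are named, and 1 gene is counted but not reported here singly.

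Both populations came from the same mice. Across the 14801 genes the deviations of same-numbered libraries correlated at 0.223, 0.720 and 0.471, and each was over 0.1, so same-numbered libraries were treated as pairs. The value for Gli1+ replicate 1 with Gli1- replicate 3 was 0.274, above that of its own pair. For Gli1+ replicate 3 with Gli1- replicate 1 it was 0.107. These mismatched libraries passed the same cut, so it could not tell pairs 1 and 3 from them. The pairing thus rests on the replicate numbers. The paper names no block, so the fit without it is the main one. Alternatives were DESeq2 1.42.0 and limma-voom (limma 3.58.1) with and without the replicate block, other scalings and filters, libraries left out and, for 5 of the 25, chosen after seeing the data, pairs left out, no filter and a lowess length correction (span 0.3) with the block. The tests were checked on simulated counts. Counts of 17114101 to 18602482 a library limit the precision of genes near the floor of 3 counts. Figures were drawn with matplotlib 3.10.9 in Python 3.11.15.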

Additional observations from a re-analysis of the deposited data

How the results depend on the processing

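Of the 9 tested genes, *Igfbp3*, *Igfbp4* and *Igfbp6* kept their direction in all 25 alternatives. The number of the 9 called was 0 in the main test and 1, *Igfbp6*, in DESeq2 with the replicate block, also with no filter and with the length correction. It was 0 to 1 when libraries were left out. Over all genes, 267 were called with no filter, 30 by DESeq2 without a block, 428 by DESeq2 with the replicate block, 424 by it with no filter, 580 by it with the length correction, 0 when single libraries were left out, and, with the block, 1201 (edgeR) and 781 (DESeq2) without replicate 1, 174 without replicate 2 and 71 without replicate 3. In the wider pathway 3 genes were called in each of the 3 DESeq2 fits with the replicate block on all libraries, and 0 to 5 with libraries left out. *Gli1* was called at 2.21 (DESeq2 with the replicate block), 2.20 (with no filter too) and 2.25 (with the length correction), at 1.99 and 1.998 (edgeR and DESeq2 with the block, without replicate 1), and ran from 1.76 to 2.66 when libraries were left out. On all 6 libraries, edgeR and limma-voom with the block called 0 genes.

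The direction turned for *Igf1* to 0.30 in limma-voom without a block, and with the block to 0.24 in edgeR, 0.23 in DESeq2, 0.22 in DESeq2 with no filter, and 0.11 in edgeR and 0.11 in DESeq2 with the length correction, and in DESeq2 to 0.98 without replicate 2 and 0.17 without replicate 3. Without replicate 1 and with the block (edgeR, DESeq2) *Ghr* was at -0.42 and -0.42, *Igfbp5* at -0.28 and -0.29 and *Igfbp7* at 0.068 and 0.066. Without Gli1+ replicate 1 alone *Ghr* was at -0.15 and *Igf1r* at -0.084, and without Gli1- replicate 3 *Igf2r* was at 0.023. With libraries left out, log2FC ran from -0.42 to 0.54 for *Ghr*, -1.26 to 1.87 for *Igf1*, -0.08 to 0.97 for *Igf1r*, -0.78 to 0.13 for *Igf2r*, -0.47 to 0.77 for *Igfbp5* and -1.74 to 1.19 for *Igfbp7*. The causes were not tested. *Igfbp3* ran from -1.31 to -0.62, *Igfbp4* from -1.80 to -0.38 and *Igfbp6* from -3.06 to -0.43, the last without Gli1- replicate 2. With shares of counts in place of TPM, the difference in share was -7.30 percentage points for *Igfbp6* and -6.66 for *Igfbp4*.

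Low counts limited the precision of *Igfbp2*, *Igf2* and *Igfals*. *Igfbp2* and *Igf2* held few counts in several libraries, and *Igfals* held 0 counts in Gli1+ replicate 1 and 18 to 33 in every other library. *Igfbp2* passed the filter in no fit on all 6 libraries, and its log2FC was -1.19 without the filter.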

Other observations

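The ratio of *Igf1r* to *Igf2r*, the signalling and the clearing receptor, was chosen after the values were seen. On TPM it was 0.551, 0.286 and 0.587 in Gli1+ replicates 1 to 3 and 0.280, 0.224 and 0.297 in Gli1- replicates 1 to 3. All 3 pairs had the higher ratio on the Gli1+ side, at means of 0.475 ± 0.164 (SD, n = 3) and 0.267 ± 0.0385 (SD, n = 3), and the populations overlapped through Gli1+ replicate 2 (exact permutation p = 0.2).

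In edgeR with the replicate block, 10 of the 54 tested genes of the wider pathway had an unadjusted p under 0.05, 8 lower and 2 higher in Gli1+ cells (18.5%, against 8.61% of all genes tested). Among the lower ones were *Stat5a*, *Mapk3* and *Gab1*, at unadjusted edgeR p-values of 0.0192, 0.0293 and 0.0489. These and the 2 higher ones were singled out after their values were seen. *Adam12*, which encodes a protease that cuts IGFBPs, was at 262, 4.79 and 83.7 CPM in Gli1+ cells and at 53.7, 4.24 and 38.6 CPM in Gli1- cells, so replicate 2 was lowest in both populations. *Pik3cb*, a catalytic subunit of PI3 kinase, was at 86.2, 19.8 and 59.8 CPM against 28.4, 13.9 and 36.8 CPM. Their log2FC values in edgeR with the replicate block were 1.22 (unadjusted p = 0.0403) and 0.94 (unadjusted p = 0.0306), and neither was called.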
